A study of Homo sapiens with 12 samples.

Results

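The genes described here are 6 growth factor receptors (EGFR, MET, ERBB2, AXL, IGF1R and INSR) and the 2 adaptors IRS1 and IRS2, as they appear in 6 lists of MeRIP-seq peaks from H460 cells, an established line derived from a human large cell carcinoma of the lung. MeRIP-seq enriches RNA fragments that carry N6-methyladenosine (m6A, a methylated adenosine found in mRNA) with an antibody, and peaks are places where the enriched library exceeds the unenriched input. A peak interval was assigned to a gene when it shared at least 1 bp with the gene's hg19 span on the same strand. By this rule 70 of the 53502 intervals of all lists fell on the 8 genes. Each gene had an interval in at least 1 list, and no interval lay on the opposite strand of any of the 8 spans.

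The labels describe wild-type H460 cells in 2 states: cells given 100 nM rapamycin for 24 h, an inhibitor of the kinase complex mTORC1 used to induce autophagy, and cells without any treatment. Each state has 3 input and 3 immunoprecipitated (IP) libraries, 12 in all, and nothing in the labels says whether they came from separate cultures. The record ties the 6 lists to untreated samples, 3 inputs and 3 IPs, but the names of the lists carry rapamycin with the numbers 4, 5 and 6 and con with the numbers 1, 2 and 3. The lists are therefore called by these names (rapamycin-4 to rapamycin-6, con-1 to con-3) without taking the names as treatment, and no effect of rapamycin was tested. Each value is a single value of a list, and sequence motifs were not examined, so that whether an interval marks m6A was not checked. The libraries' sequencing depth is unknown, so a gene without an interval may carry no mark or may have had too few reads, which cannot be told apart here.

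Receptor tyrosine kinases bind growth factors outside the cell and phosphorylate tyrosines inside it, which starts the RAS-MAPK and PI3K-AKT cascades. IGF1R and INSR work through the adaptors IRS1 and IRS2, which they phosphorylate and which then recruit PI3K. mTORC1 lies downstream of AKT, and its substrate S6K acts back on IRS1, so that inhibiting mTORC1 is known to relieve a brake on this receptor branch. In mRNA, m6A is known to be frequent in long internal exons, around stop codons and in 3′ untranslated regions.

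The 6 lists differ in length. The rapamycin-named lists held 4530 to 4899 intervals over 4.77 to 5.40 Mb, and the con-named lists held 12040 to 14908 intervals over 9.84 to 12.17 Mb. Each interval has a score deposited by the authors, and its scale is not stated. The lowest score of a list was 70 to 70.08, many intervals stand at exactly 3100, and the list medians were 191, 183 and 168 in rapamycin-4, rapamycin-5 and rapamycin-6 and 242, 371 and 347 in con-1, con-2 and con-3. Scores are given to place an interval within its own list, since they may rise with depth, and a lower score in another list does not show a weaker peak.

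On the 8 genes, lists rapamycin-4, rapamycin-5 and rapamycin-6 held 9, 8 and 7 intervals, and lists con-1, con-2 and con-3 held 12, 19 and 15. The rapamycin-named lists thus held fewer intervals here than any con-named list, as they did over the genome. The genes took a larger part of the covered sequence in the shorter lists, with 0.362%, 0.316% and 0.329% in rapamycin-4, rapamycin-5 and rapamycin-6 and 0.221%, 0.233% and 0.234% in con-1, con-2 and con-3. The intervals on these genes ranged from 127 to 7470 bp, and in every list their median width exceeded that of the whole list. Their median width was 1826, 1344.5 and 1214 bp in rapamycin-4, rapamycin-5 and rapamycin-6, where the medians of the whole lists were 819, 829.5 and 624 bp. It was 549, 794 and 1214 bp in con-1, con-2 and con-3, where the whole lists had 452.5, 526 and 631 bp.

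MET, IGF1R and IRS2, 3 of the 8 genes, had an interval in all 6 lists. IRS1 had one in 5 lists, EGFR and INSR in 4, ERBB2 in 2 and AXL in 1. List con-2 was the only one with an interval on all 8 genes. Lists rapamycin-4, con-1 and con-3 had intervals on 6 genes, and rapamycin-5 and rapamycin-6 on 4.

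**Figure D1:**
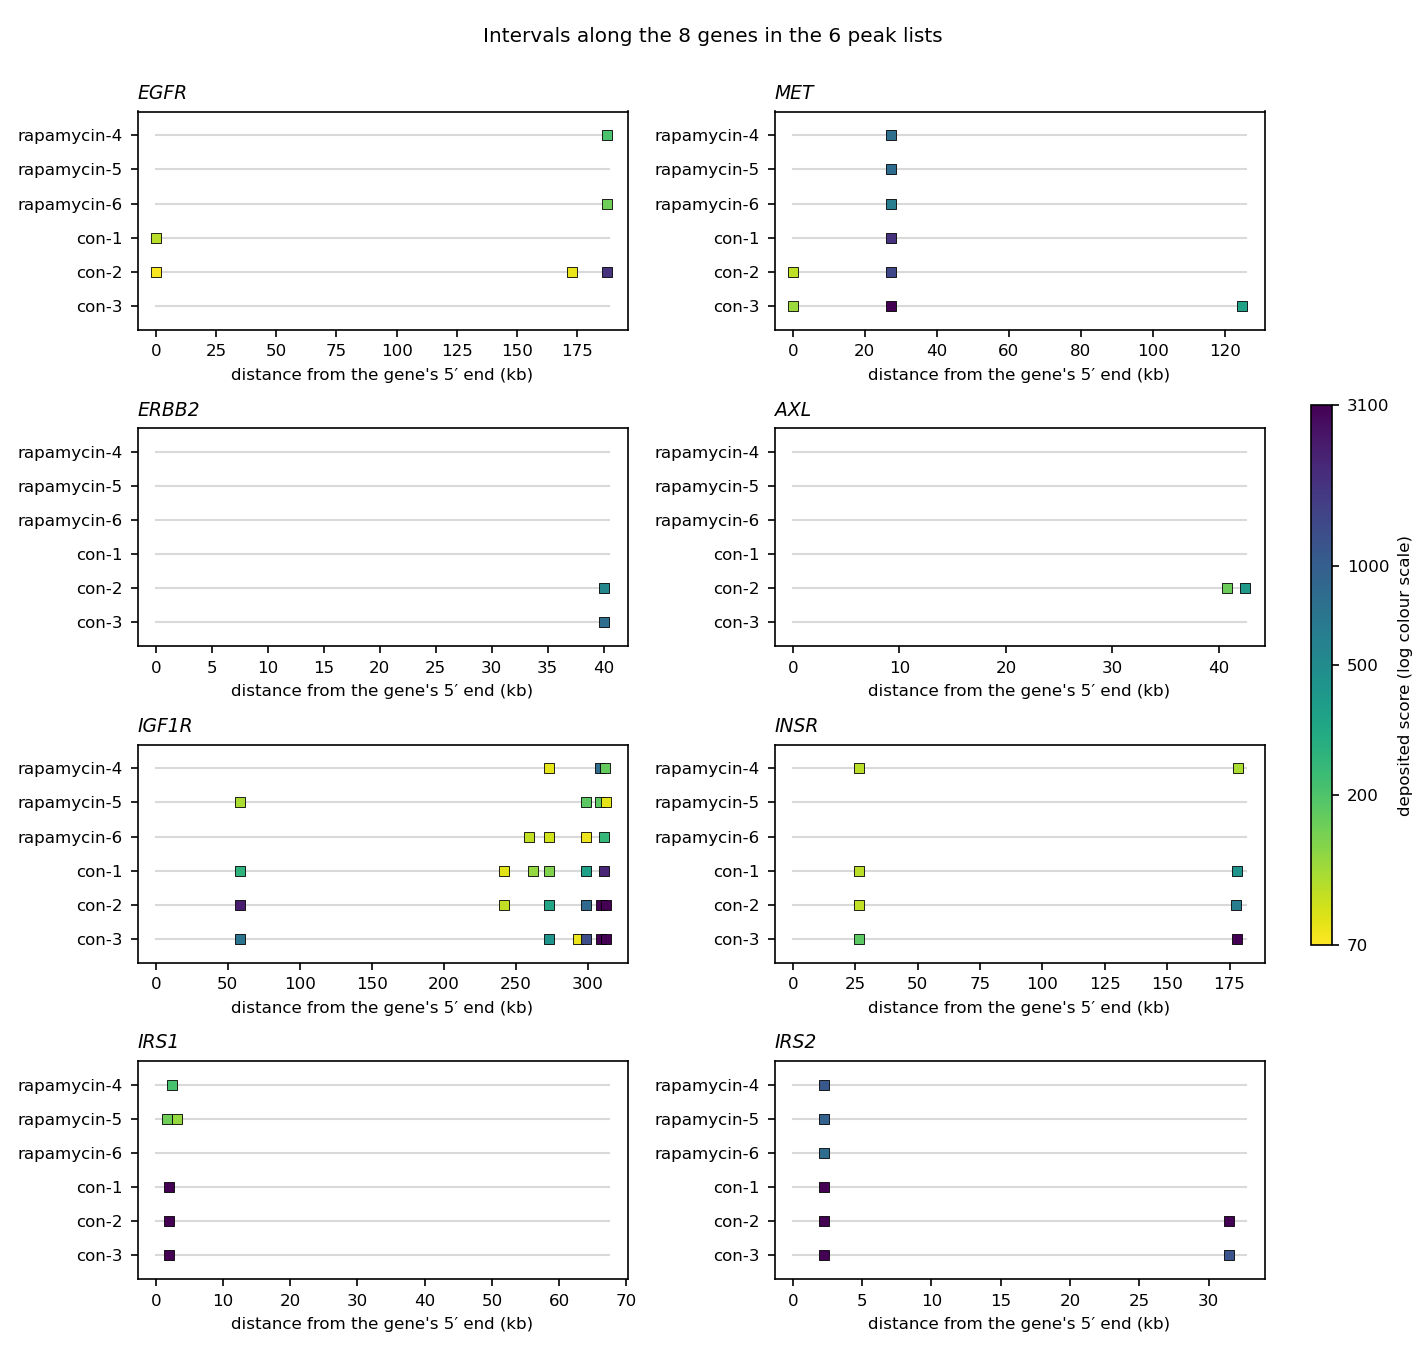
Each panel shows 1 gene, with the distance from its 5′ end in kb on the x axis and the 6 peak lists as rows. Squares mark the middle of each interval (not its width) and are coloured by the deposited score on a log scale. Intervals recur at the same places in different lists, and those of IRS1 and the IRS2 intervals found in all 6 lists lie near the 5′ end of their genes.

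Intervals of different lists that shared at least 1 bp were joined into regions, which gave 22 regions on the 8 genes and 20742 over the genome. With each region counted once, the median width was 549 bp on the genes and 418 bp over the genome. On the genes, 3 regions were held by all 6 lists, where 8.30% of all regions were. Another 7 regions were held by 1 list, where 36.9% of all regions were. Regions in all 3 con-named lists and in no rapamycin-named list make up 12.3% of all regions, and 0 of the 22 were of this kind. That count was 3 with list con-1 left out, 2 without con-3, 2 without rapamycin-4 and 1 without rapamycin-5, and 4 when only scores from the pooled median of all lists upwards were kept. The share of all regions was not computed under these alternatives, so their counts have no background beside them. The 3 con-named lists shared 9 regions on these genes, where they shared 34.9% of all regions, and each of the 9 was present in at least 1 rapamycin-named list as well. By contrast 11 of the 22 were in no rapamycin-named list, where 61.6% of all regions were. A single region was in no con-named list, against 4.81% of all regions. With so few regions these counts describe the 8 genes and are not set apart from the background by a test.

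Within 20 bp, 4 regions reached the 5′ end of the gene span and 6 reached its 3′ end. The other 12 reached neither end, and 7 of these lay on IGF1R. The regions covered little of most gene spans, introns included, from 1.37% of the EGFR span to 5.63% of the IRS1 span, and 21.4% of the short IRS2 span. The share of each mRNA that they covered was not computed. Exon positions of hg19 were not used here, so intervals are placed by their distance from the ends of the genes and not by exon.

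EGFR, the receptor for epidermal growth factor and a frequent driver in lung adenocarcinoma, spans 188307 bp on the plus strand of chromosome 7 (chr7:55086725-55275031). Its last 2083 bp (chr7:55272949-55275031) formed a region held by 3 lists. In rapamycin-4 the interval was 1826 bp long with a score of 206.43, and in rapamycin-6 it was 2083 bp long with a score of 161.14. In con-2 it had the full 2083 bp and a score of 1798.34. Both rapamycin-named scores lay near the median of their own lists, whereas the con-2 score ranked at the 81.1 percentile of its list. The 3′ end was held by neither rapamycin-5 nor con-1 nor con-3. The other EGFR regions were short and scored low. One of 345 bp at the 5′ end was held by con-1 (score 105.44) and con-2 (72.15), and one of 156 bp, 15464 bp before the 3′ end, by con-2 alone (78.98).

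MET, the receptor for hepatocyte growth factor, spans 125982 bp of the plus strand (chr7:116312459-116438440). A region of 1214 bp that starts 26666 bp into the gene (chr7:116339125-116340338) was present in all 6 lists with the same start and the same end. It scored 788.44, 838.38 and 633.86 in rapamycin-4, rapamycin-5 and rapamycin-6, and 1807.06, 1382.91 and 3100 in con-1, con-2 and con-3. Within the lists it ranked between the 86.9 and 88.7 percentile of the rapamycin-named lists and between the 76.7 and 94.8 percentile of the con-named lists. In rapamycin-5 and rapamycin-6 it had the second highest score on the 8 genes, after IRS2. The other 2 regions of MET were found in con-named lists only. One of 188 bp at the 5′ end had scores of 102.71 in con-2 and 123.15 in con-3, and the last 2500 bp of the gene had a score of 357.67 in con-3.

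ERBB2, the HER2 receptor that has no known ligand and pairs with other members of its family, and AXL, the receptor for the ligand GAS6, were found only near their 3′ ends and only in con-named lists. The last 974 bp of ERBB2 (chr17:37883942-37884915, plus strand) scored 538.54 in con-2 and 798.45 in con-3, with the same ends in both. AXL had a pair of intervals, both in con-2. One of 794 bp (chr19:41765458-41766251, plus strand) scored 164.46, and one of 283 bp (chr19:41767390-41767672) at the end of the gene scored 401.15. The AXL intervals have no second list to set them against.

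IGF1R, the receptor for the insulin-like growth factors, carried 29 of the 70 intervals and 8 of the 22 regions. It is also the longest of the 8 genes, at 314999 bp of the plus strand (chr15:99192761-99507759). Its last 7470 bp (chr15:99500290-99507759) formed the widest region of the set and one that every list held. All 6 lists gave it the same start. Beyond that the lists differed. In con-1 and rapamycin-6 it was 1 interval, of 7470 bp and 7215 bp. In the other lists it was split, with a gap of 252 bp in rapamycin-4, 1264 bp in rapamycin-5, 113 bp in con-2 and 13 bp in con-3.

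Taking the higher of the intervals in a list, this terminal region of IGF1R scored 825.2, 179.39 and 247.52 in rapamycin-4, rapamycin-5 and rapamycin-6 and 2094.75, 3100 and 3100 in con-1, con-2 and con-3. In con-2 and con-3 both parts stood at 3100. In the rapamycin-named lists the part towards the 5′ end scored higher where the region was split, with 825.2 against 171.95 in rapamycin-4 and 179.39 against 81.33 in rapamycin-5. Between 83.1% and 96.6% of the region was covered in the rapamycin-named lists and between 98.4% and 100% in the con-named lists.

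Between the ends of IGF1R lay 7 short regions of 127 to 546 bp. Each was 1 interval whose ends were equal in every list that held it. A region of 546 bp, 58030 bp into the gene (chr15:99250791-99251336), scored 113.37 in rapamycin-5 and 265.62, 2312.27 and 718.56 in con-1, con-2 and con-3. A region of 295 bp (chr15:99465377-99465671) scored 80.78 in rapamycin-4 and 90.93 in rapamycin-6, and 144.41, 332.87 and 436.5 in con-1, con-2 and con-3. One of 135 bp (chr15:99491803-99491937) scored 183.24 in rapamycin-5 and 76.69 in rapamycin-6, and 363.68, 855.23 and 1291.03 in con-1, con-2 and con-3. In each of these 3 regions the rapamycin-named scores lay below all con-named scores, as in 66.8% of all regions in lists of both names. Of the other 4, one of 313 bp was held by con-1 and con-2, and those of 215, 127 and 130 bp were held by rapamycin-6, con-1 and con-3, one list each, with scores from 78.23 to 129.17 over all 4. The 215 bp region is the one that no con-named list held.

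INSR, the insulin receptor and closest relative of IGF1R, lies on the minus strand of chromosome 19 (chr19:7112266-7294011). It had 2 regions, and both were held by the same 4 lists: rapamycin-4 and all con-named lists. A region of 552 bp that starts 26104 bp into the gene (chr19:7267356-7267907) had the same ends in each and scored 103.62 in rapamycin-4 and 104.26, 100.11 and 181 in con-1, con-2 and con-3. The second (chr19:7114910-7117421) is 2512 bp wide and stops 2644 bp before the 3′ end of the gene. It was 1500 bp long in rapamycin-4 with a score of 113.54, and 2477, 2337 and 2512 bp long in con-1, con-2 and con-3 with scores of 435.42, 627.92 and 3100. Its start on the transcript was the same in the con-named lists and lay further towards the 3′ end in rapamycin-4. INSR thus had a wide region near its 3′ end and a short one further towards the 5′ end, where IGF1R had several short ones. This layout was not particular to the pair. EGFR had a region of 2083 bp at its 3′ end and one of 345 bp at its 5′ end. MET had one of 2500 bp, in con-3 only, and one of 188 bp at these ends. In each list that held the wide regions of both INSR and IGF1R the INSR one scored lower, except in con-3, where both stood at 3100. This order did not hold for every pair of short regions.

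IRS1 and IRS2 differ from the receptors in structure, since a large first exon carries nearly all or all of their coding sequence. In both genes the main region began exactly at the 5′ end of the gene span. For IRS1, on the minus strand of chromosome 2, the region covers the first 3802 bp (chr2:227659705-227663506). The con-named lists each held it as 1 interval of 3802 bp with a score of 3100. Rapamycin-4 held 2780 bp of it with a score of 210.95, and rapamycin-5 held 1237 and 1452 bp, 193 bp apart, with scores of 127.99 and 160.72. Rapamycin-6 held no interval on IRS1. In both rapamycin-named lists with an interval the 5′ part was missing, the first 1022 bp in rapamycin-4 and the first 920 bp in rapamycin-5.

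For IRS2, on the minus strand of chromosome 13, the region covers the first 4526 bp (chr13:110434389-110438914), and all 6 lists held it with the same start and end. It scored 1107.46, 944.85 and 806.84 in rapamycin-4, rapamycin-5 and rapamycin-6, the highest score on any of the 8 genes in each of these lists, and 3100 in con-1, con-2 and con-3. The IRS2 region was thus whole in the lists where the IRS1 region was partly covered or absent. The last 2472 bp of IRS2 (chr13:110406184-110408655) formed a second region in con-2 (score 3100) and con-3 (1141.57), with the same ends, and was in neither con-1 nor any rapamycin-named list. Together the adaptors held 7306, 7215 and 4526 bp of intervals in rapamycin-4, rapamycin-5 and rapamycin-6 and 8328, 10800 and 10800 bp in con-1, con-2 and con-3.

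**Figure D2:**
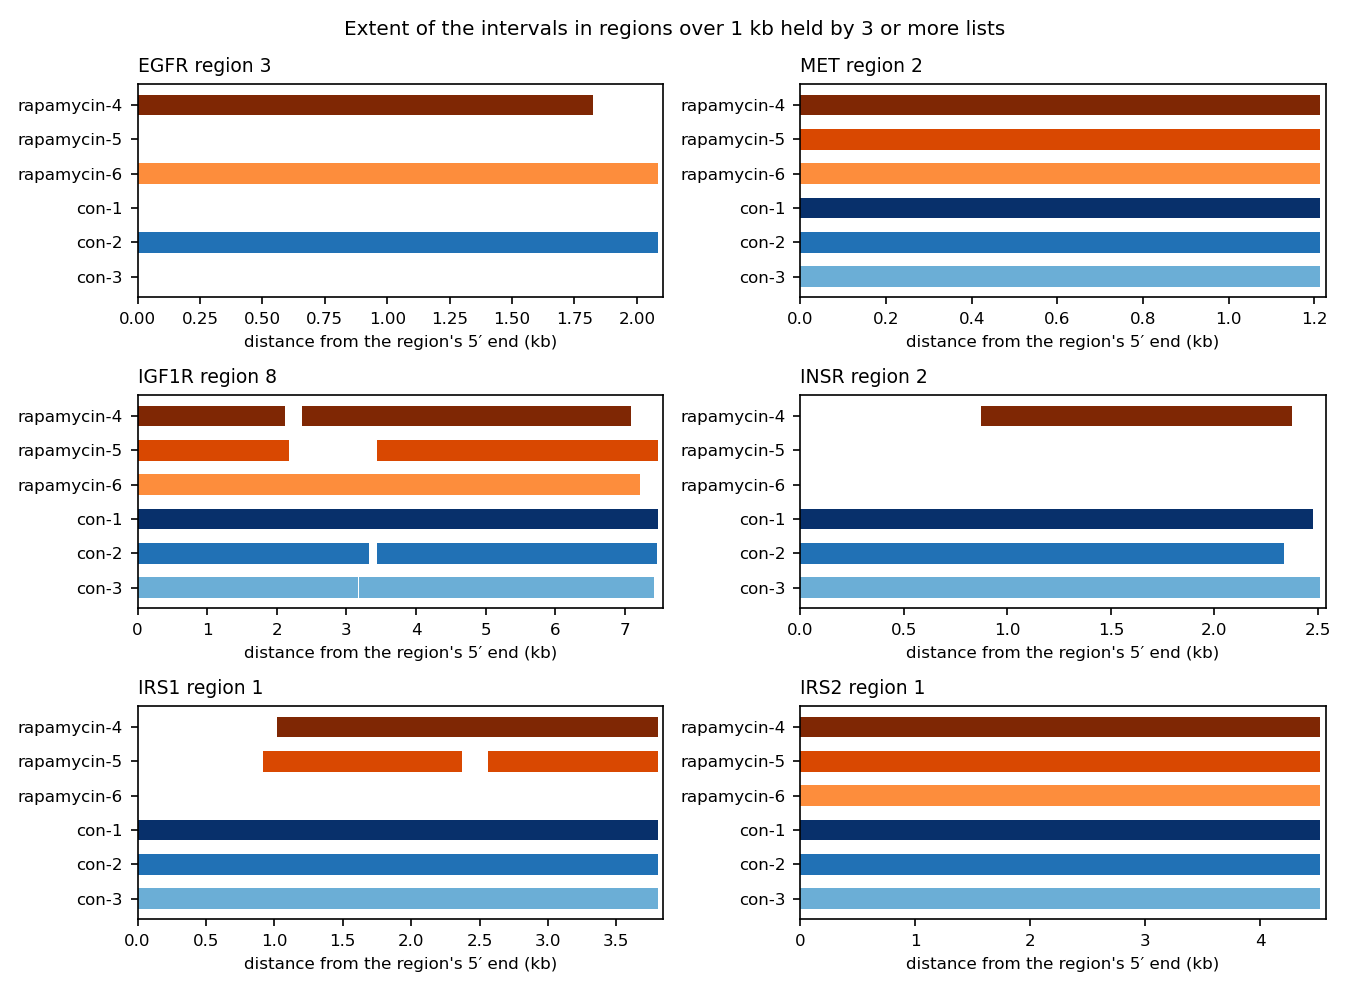
Each panel is a region wider than 1 kb that 3 or more lists held, with the distance from its 5′ end in kb on the x axis and the 6 peak lists as rows; bars show the intervals to scale. The regions of MET and IRS2 have the same ends in all 6 lists, whereas the IRS1 region lacks its 5′ part in rapamycin-4 and rapamycin-5 and IGF1R is split in 4 lists.

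**Figure D3:**
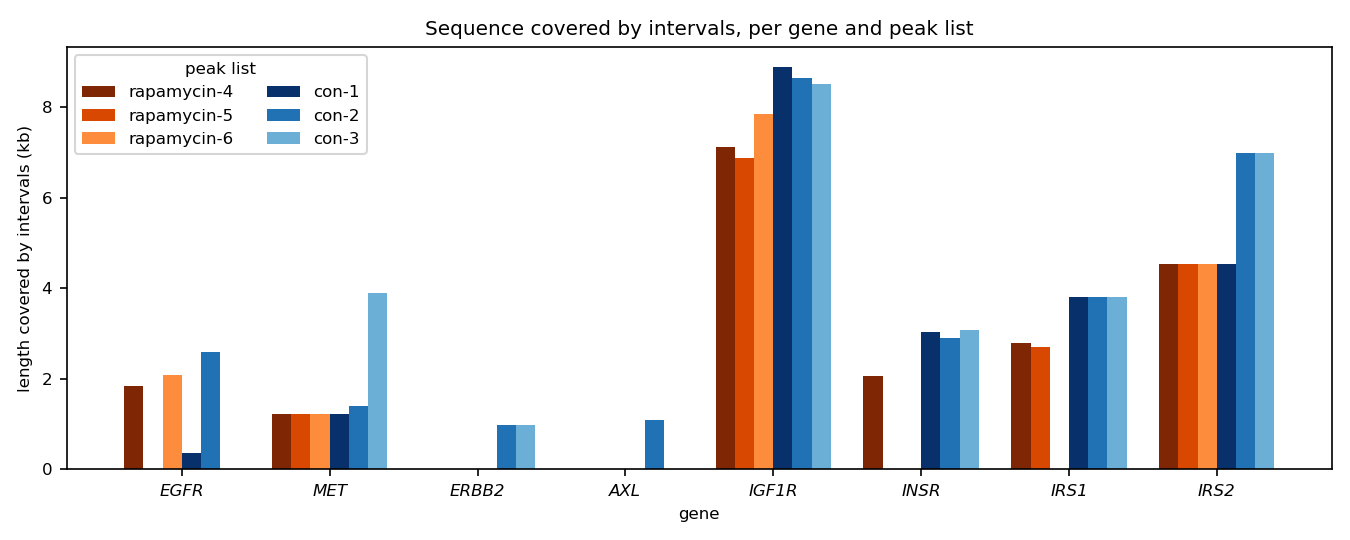
Bars give the length covered by intervals in kb (y axis, from 0) for each gene (x axis) in each of the 6 peak lists, 1 value per list. IGF1R was covered over 6887 to 7860 bp in the rapamycin-named lists and 8513 to 8886 bp in the con-named lists, and no bar means no interval.

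Over the genes, 15 regions were held by at least 2 lists, and 11 of these had the same start and the same end in every list that held them, where 57.4% of all such regions did. The exceptions were the terminal regions of EGFR and IGF1R, the wide INSR region before the 3′ end and the region of IRS1, all wider than 2 kb. The 2 regions of IRS2 are also wider than 2 kb but had the same ends in every list holding them. These ends were not compared with exon boundaries.

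Of the 22 regions, 10 were held by lists of both names. In 9 of them every rapamycin-named score was lower than every con-named score, where this was so in 66.8% of all such regions. The exception was the 552 bp region of INSR, where the score of 103.62 in rapamycin-4 lay between the 100.11 of con-2 and the 104.26 of con-1. No region on these genes had the opposite order, which 4.65% of all such regions did. The whole rapamycin-named lists also had lower median scores, and the part of depth in the difference was not tested.

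**Figure D4:**
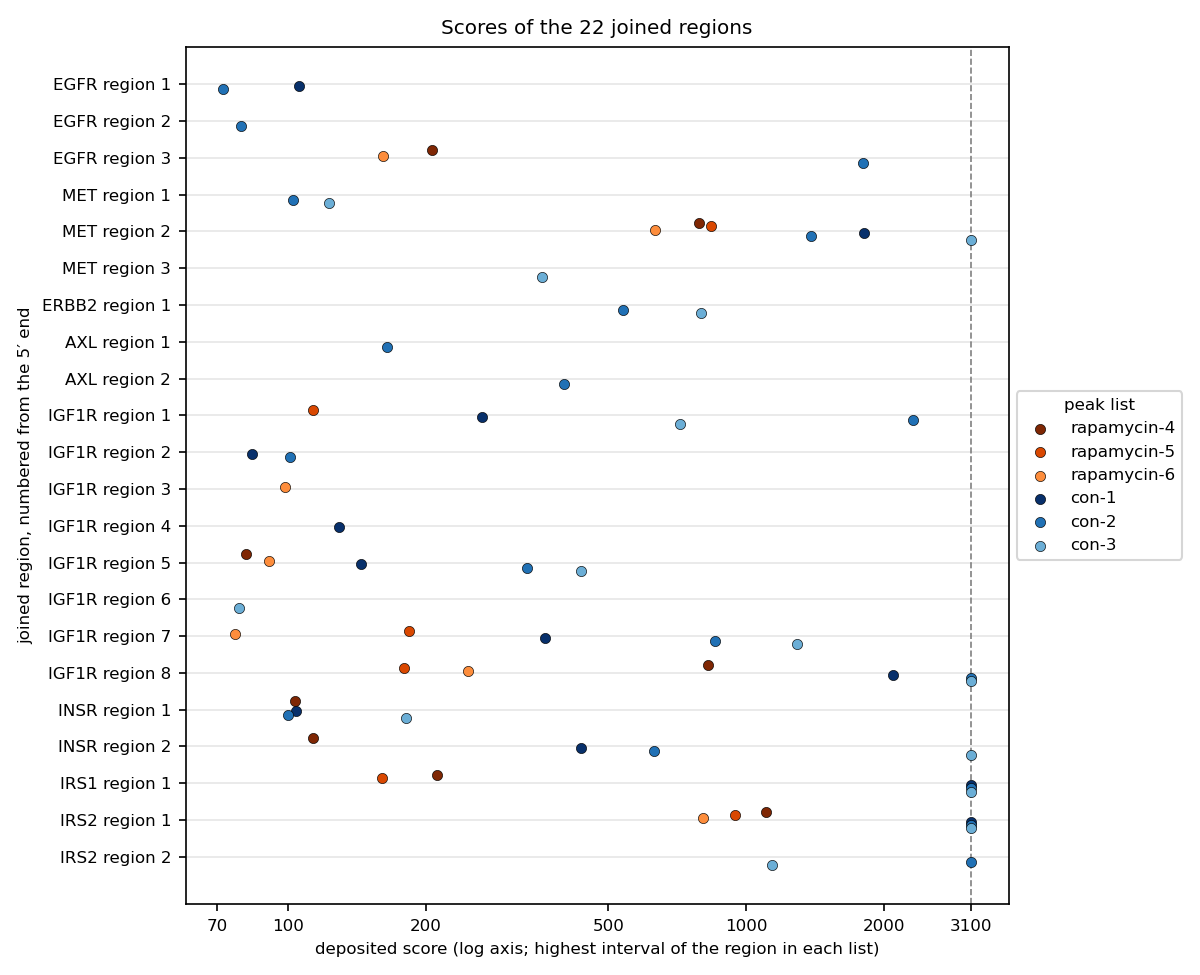
Deposited scores (x axis, log) of the 22 joined regions (rows, numbered from the 5′ end of each gene), with 1 point per peak list holding the region. A point gives the highest interval of the region in that list. The dashed line marks 3100, where 13 intervals stood, all in con-named lists. Both parts of the split IGF1R region share 1 point there in con-2, and likewise in con-3. IRS2 region 1 has the highest score of the 22 within each rapamycin-named list, from 806.84 to 1107.46.

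A list's median splits it evenly. Against it, 5 of 9 intervals on the genes scored above the median of their list in rapamycin-4, 3 of 8 in rapamycin-5 and 3 of 7 in rapamycin-6. In con-1, con-2 and con-3 these were 7 of 12, 12 of 19 and 12 of 15. Intervals at 3100 numbered 0 in each of the rapamycin-named lists, where 1.47%, 1.57% and 1.10% of intervals in rapamycin-4, rapamycin-5 and rapamycin-6 are at or above this value. They numbered 2, 5 and 6 in con-1, con-2 and con-3, where the whole lists have 3.74%, 11.8% and 10.0%. In con-2 and in con-3 the split terminal region of IGF1R counts as 2 of these intervals. The 13 intervals at 3100 lay on IRS1, IRS2, IGF1R, INSR and MET, and none on EGFR, ERBB2 or AXL.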

How the data were processed

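Per the labels, RNA of H460 cells was depleted of ribosomal RNA and sequenced as input and IP libraries. The submitters' processing notes name HISAT2 2.0.4 and the build hg19. The authors deposited 6 peak lists with chromosome, start, end, name, score and strand. Peak names have the default form of MACS; no source used here gives its version and settings, the scale of the score or the libraries behind each list.

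Gene spans are hg19, positions are written 1-based, and no gene other than the 8 was named because the annotation tables used are GRCh38 and positions were not converted. Intervals sharing at least 1 bp on the same strand were joined over lists. A percentile is the mid-rank of a score within its list. The tools were pandas 2.3.3, numpy 2.4.6 and matplotlib 3.10.9 under Python 3.11.15. Joining was checked on simulated lists of 2000 regions (4 of 4 checks passed), and interval counts were the same with bedtools 2.31.1 in all 6 lists. The simulated regions lay apart and had at most 1 interval per list. They therefore did not check the joining of split intervals, as on IGF1R and IRS1. The genes, regions to name (all on a gene with up to 3, otherwise those in 3 or more lists) and alternatives were chosen with earlier results of these data known. Lists were not assigned to arms, no test was run, and no sequence was read, since no genome of this build was used.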

Additional observations from a re-analysis of the deposited data

How the results depend on the processing

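Alternatives to 5 values were tried, and 45 of the 53 resulting values lay within 1.5 times the value as reported (counts of 0 only when still 0). The median per list was 10.5 intervals and 20664.5 bp on the 8 genes. When a score of at least the pooled median (260.435) was required, the median number of intervals was 5, the regions numbered 13 in place of 22, and 4 regions were in all con-named lists and no rapamycin-named list, in place of 0. This minimum removes intervals by construction. With each list shortened to its best 4530 intervals, the number in the shortest, 13 regions were left, and MET, IGF1R and IRS2 still had 3 regions in all 6 lists. With each list left out in turn, the regions in all con-named lists and no rapamycin-named list numbered 0 to 3: 2 without rapamycin-4, 1 without rapamycin-5, 3 without con-1 and 2 without con-3. For this kind of region, the share of all regions was not computed under the score minimum or with a list left out. The regions in all remaining lists numbered 3 to 4. Ignoring strand, asking for 50% of an interval inside the span, and joining intervals up to 100 bp apart changed none of the values they were run on. No paired analysis was possible because no list was assigned to an arm and no test was made. The unknown depth limits what an absent interval means.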
